A study of Saccharomyces cerevisiae with 13 samples.

Results

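Glycogen and trehalose are the storage carbohydrates of budding yeast (Saccharomyces cerevisiae). Glycogen is a branched glucose polymer that grows on the protein primer glycogenin through glycogen synthase and a branching enzyme, and it is taken apart by glycogen phosphorylase and a debranching enzyme. Trehalose is a glucose disaccharide made by way of trehalose-6-phosphate and split by trehalases. Yeast stores both when growth slows or stress sets in, and both stores turn over during the cell cycle. The 10 genes described here code for enzymes of these pathways and for 1 inhibitor. They are GLG1, GSY1, GSY2 and GLC3 of glycogen synthesis, GPH1, GDB1 and IGD1 of glycogen breakdown, TPS1 of trehalose synthesis, and NTH1 and NTH2 of trehalose breakdown. They are 10 of 6002 nuclear protein-coding genes of the RefSeq R64 annotation (sacCer3), and all 10 names were found in it. The 10 were chosen by name, with the peak calls of these same lists already known, so their counts are a description and carry no test.

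Break-Seq labels the ends of broken DNA with biotin inside agarose plugs, captures the labelled fragments and sequences them, and each sample came as 1 list of peaks, that is, regions where labelled ends piled up. Cultures were held in G1 by 3 µM alpha factor, then placed for 1 h in 200 mM hydroxyurea (HU), which starves replication of nucleotides, and some were moved for 1 h to medium free of HU (recovery, R). Strain WFA73 carries mec1-1, a mutant allele of the checkpoint kinase gene MEC1 (called mec1), and strain WFA72 carries intact MEC1 (called WT). Called from the HU library alone were 3 mec1 lists (Exp A, Exp B and Control) and 2 WT lists (Exp C and Control). The Control experiment also gave, for each strain, 1 list of HU over mock labelling without biotin and 1 of HU over G1. The sample titles of these 4 lists name the mock or G1 material and their descriptions name HU called against it, and the descriptions were followed. Recovery was called over the HU library of the same experiment, in 2 mec1 lists (Exp A and Exp B) and 1 WT list (Exp C). Peaks of these 3 lists are thus places with more labelled ends in recovery than in HU. The remaining list is a control in which G1 DNA from mec1 was digested in vitro with the restriction enzyme BamHI. Exp A and Exp B were separate runs of the mec1 experiment, and the labels do not tell whether separate clones were used. Exp A and Exp B hold mec1 only and Exp C holds WT only, so outside the Control experiment strain and experiment cannot be told apart.

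The lists held 138, 151 and 265 peaks for mec1 HU in Exp A, Exp B and Control, and 103 and 43 for WT HU in Exp C and Control. There were 472 peaks for mec1 HU over mock against 60 for WT, and 547 for mec1 HU over G1 against 90 for WT. The mec1 recovery lists held 198 and 209 peaks and the WT recovery list 137, and the BamHI list held 1296. The lists carry no read counts, so sequencing depth is unknown and a gene without a peak is only a gene without a call. Each peak has the score of the authors' peak caller, whose scale the files do not state. It is used here only as a rank within a list, apart from the alternative that asks for scores of at least 100. The 12 lists other than BamHI rest on 8 libraries, because the 3 Control lists of a strain share their HU library and, at the members, gave the same peak positions wherever they shared a peak.

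A gene was counted as reached when at least 1 bp of a peak lay in its coding body or within 500 bp either side. Over the 12 lists, 8 of the 10 genes were reached at least once: GSY1, GSY2, GLC3, GPH1, IGD1, TPS1, NTH1 and NTH2. Across all protein-coding genes the share was 39.8%, and it was 40.2% among the 2109 genes of 1488 to 4611 bp, the lengths of the members other than the short IGD1. IGD1 is counted among the 8 reached although it lies outside that range. In each of the 30 cases where a peak reached a member, it touched the coding body itself, not only the flank. GLG1 and GDB1 had no peak within 500 bp in any of the 12 lists. Without the Control experiment 5 of the 10 remained reached, GSY2, GLC3, GPH1, IGD1 and NTH1, against 28.8% of all protein-coding genes in the same 6 lists. Without the 4 Control lists over mock or G1 the 8 remained, against 32.9% of all genes.

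In the lists called from HU alone, members were few in either strain. The 3 mec1 HU lists reached 1 member in Exp A (GPH1), none in Exp B and 3 in the Control list (GSY1, GLC3 and NTH2), a mean of 1.33 ± 1.53 (SD, n = 3). The WT HU lists reached 1 in Exp C (GSY2) and 2 in the Control list (TPS1 and NTH2), a mean of 1.50 ± 0.707 (SD, n = 2). The ranges of the strains overlap, and the means differ by less than the spread within mec1. As a share of all protein-coding genes, mec1 Exp A reached 6.35%, mec1 Exp B 7.15% and mec1 Control 12.5%, while WT Exp C reached 6.11% and WT Control 1.82%. At least 1 mec1 HU list reached 4 of the 10 members, against 17.4% of all protein-coding genes, and at least 1 WT HU list reached 3, against 7.35%. Together the 5 lists reached 6 members, against 21.2% of all genes. No member was reached in more than 1 of the 3 mec1 lists, where 6.25% of all genes were, or in both WT lists, where 0.583% of all genes were. With shares this low, none of 10 says nothing particular about the members. NTH2 was the only member reached by a mec1 and a WT list called from HU alone, against 3.6% of all genes. It was so in the Control experiment, where both strains were run and mec1 reached 3 members and WT 2.

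Calling the Control HU libraries over mock or over G1 brought in more members in mec1 and no more in WT. For mec1 the list over mock reached 5 members (GSY1, GSY2, GLC3, NTH1 and NTH2), where 23.7% of all protein-coding genes were reached, and the list over G1 reached these and TPS1, where the share of all genes was 25.8%. For WT both lists reached NTH2 and TPS1, the members already reached by HU alone, where the shares of all genes were 2.62% over mock and 3.47% over G1. In recovery over HU, mec1 Exp A reached 2 members (GLC3 and GPH1) and Exp B 4 (GSY2, GLC3, GPH1 and NTH1), against 11.6% and 12.4% of all genes. Both mec1 recovery lists shared GLC3 and GPH1, 2 of the 10, while 4.58% of all genes were in both. WT recovery reached IGD1 and NTH1, against 5.31% of all genes. The BamHI list reached GSY1, GSY2 and GDB1, against 36.8% of all genes.

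**Figure D1:**
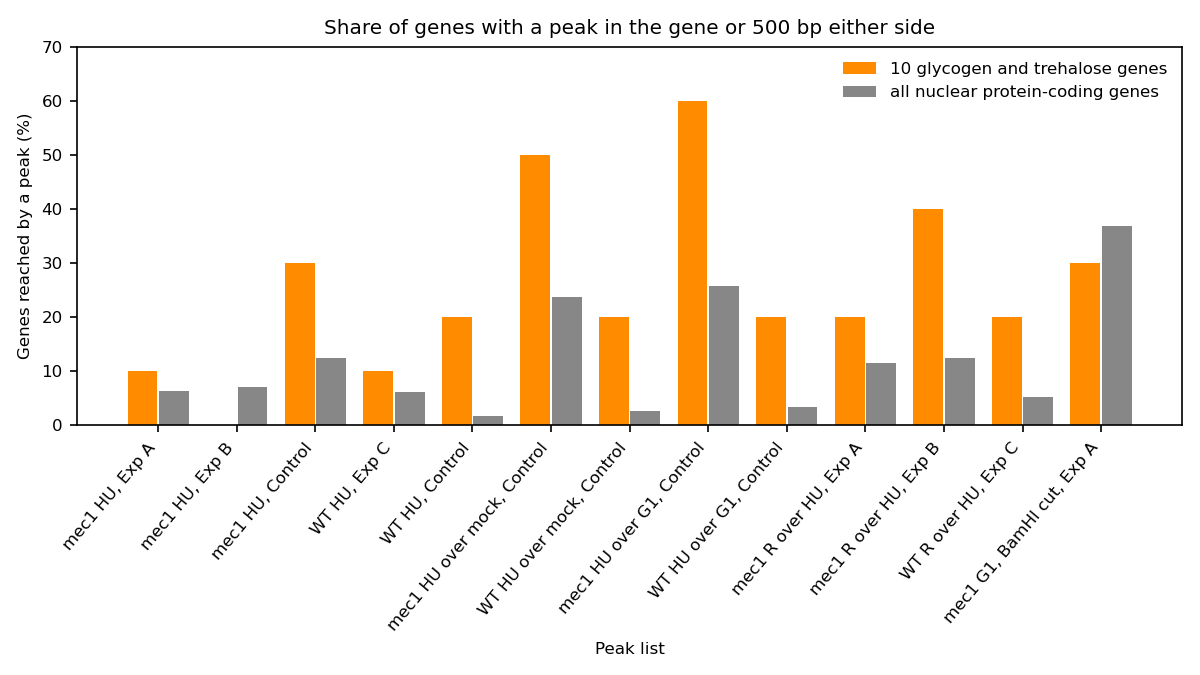
Percentage of genes reached by a peak (gene body or 500 bp either side) in each of the 13 lists, for the 10 glycogen and trehalose genes (orange) and for all 6002 nuclear protein-coding genes (grey). Bars of single lists have no error bar. The orange bar is absent for mec1 HU Exp B, where no member was reached, and is lower than the grey bar there and in the BamHI list, with 3 of 10 members against 36.8% of all genes.

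The members are long genes, and whether length bears on their counts was not tested. Their median coding length was 2122.5 bp, against 1200 bp over all protein-coding genes, and 19.4% of all genes were at least as long as the median member. The share of coding bases under peaks weighs each base alike. Peaks covered 12.2, 0 and 25.5% of the members' coding bases in mec1 HU Exp A, Exp B and Control, against 3.52, 3.74 and 7.08% of all coding bases. In WT HU they covered 9.54% in Exp C and 6.93% in Control, against 3.33 and 0.717% of all coding bases. The WT Control value rests on parts of NTH2 and TPS1, the WT Exp C value on GSY2 alone and the mec1 Exp A value on GPH1 alone. In recovery, mec1 Exp A covered 9.75% and Exp B 41.4% of the members' coding bases, against 7.23 and 8.14% of all, and WT Exp C covered 3.69%, against 2.04%. The mec1 Exp A recovery value rests on GLC3 and 50 bp of GPH1, and the WT recovery value on IGD1 and part of NTH1. Over mock the coverage of the members was 43.8% in mec1 and 6.93% in WT, against 16.5 and 1.05% of all coding bases. Over G1 it was 44.7% in mec1 and 6.93% in WT, against 17.7 and 1.34%. In the BamHI list peaks covered 19.0% of the members' coding bases, against 15.9% of all, although the share of members reached there was below that of all genes.

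**Figure D2:**
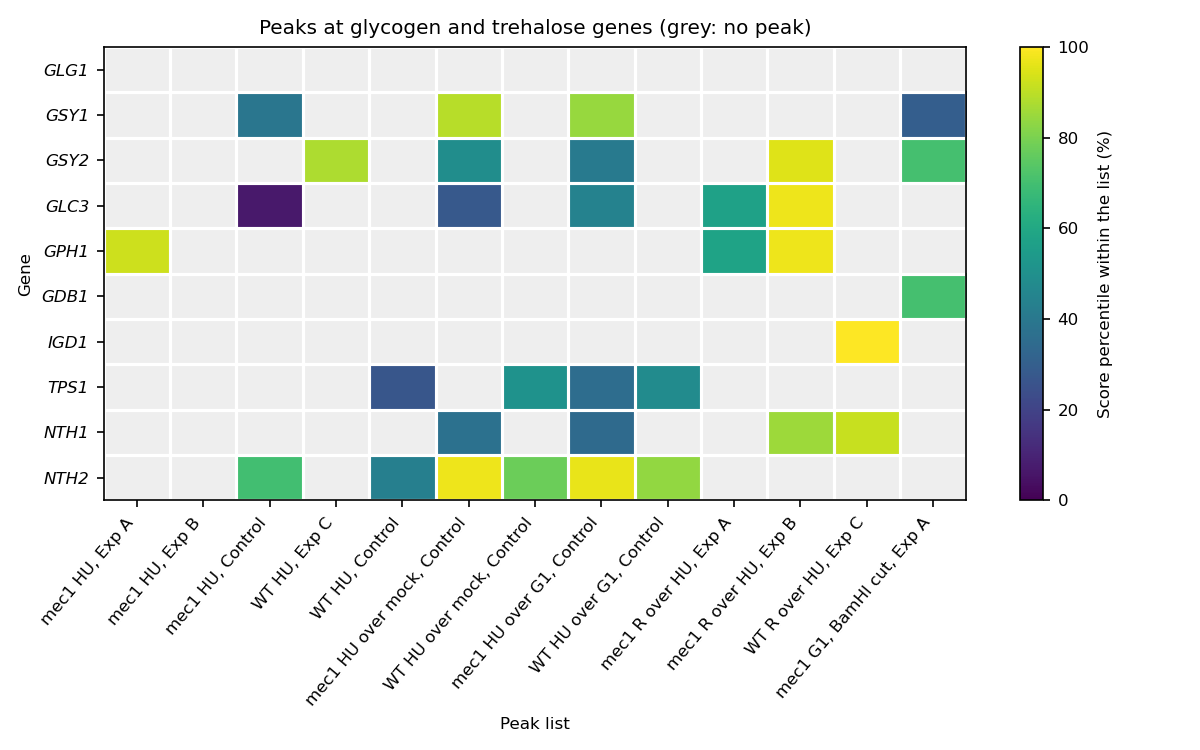
Peaks at the 10 members (rows, ordered by role) in the 13 lists (columns). Colour gives the percentile of the peak's score among the peaks of its own list, from 0 (lowest) to 100 (highest), and grey means that no peak reached the gene. The row of GLG1 is empty, that of GDB1 is filled in the BamHI list only, and that of NTH2 is filled in all 6 Control lists.

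GLG1 codes for glycogenin, the self-glucosylating protein on which a glycogen chain starts, and lies at 552770 to 554620 on chromosome XI. It stood farthest from any peak. The nearest peak in the 12 lists was 21672 bp away, in mec1 recovery of Exp B, over TRK2 and HFL1. In the 3 mec1 HU lists called alone the nearest peaks were 54566, 26672 and 21723 bp away, and in WT HU they were 59513 bp (Exp C) and 291800 bp (Control) away. The BamHI list had a peak 1164 bp upstream, over TRM2.

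GSY1 and GSY2 code for the glycogen synthases, of which Gsy2 is the main form. Outside BamHI, the mec1 Control library reached both paralogs, and other libraries reached GSY2 only. GSY1 (chromosome VI, 174265 to 176391, minus strand) was reached, outside BamHI, in the mec1 Control lists only. A peak at 169779 to 176897 covered all of GSY1, and its midpoint lay in the calmodulin-dependent kinase gene CMK1. It also reached the chromatin remodelling gene IOC3. It ranked 161 of 265 peaks in HU alone, 51 of 472 over mock and 84 of 547 over G1. None of the 3 WT Control lists had a peak on chromosome VI. In the BamHI list a peak at 173623 to 175795, ranked 910 of 1296, covered the last 72.0% of GSY1.

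GSY2 (chromosome XII, 660716 to 662833, plus strand) was reached in 2 mec1 libraries and 1 WT library. In the mec1 Control library a peak at 660333 to 663548, running from -383 bp relative to the start codon to beyond the stop codon, ranked 242 of 472 over mock and 324 of 547 over G1. It was not called in the HU list of the same library called alone. In mec1 recovery of Exp B a peak of 10379 bp at 657598 to 667976 ranked 11 of 209. In WT HU of Exp C a peak of 6608 bp at 656983 to 663590 ranked 13 of 103, and its midpoint lay 430 bp before the GSY2 start codon. Each of these peaks covered the whole coding body and reached HSP60, which codes for a mitochondrial chaperonin. They shared 3216 bp between mec1 Control and each of the other peaks, and 5993 bp between mec1 recovery and WT HU. The mec1 recovery list of Exp A and the mec1 HU lists of Exp A and Exp B did not reach GSY2. The BamHI list had a peak within the gene at 660882 to 662236, over 64.0% of the coding body.

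GLC3 codes for the branching enzyme and lies at 133120 to 135234 on chromosome V (plus strand). It was reached in 5 lists, all from mec1. In the mec1 Control library a peak of 1912 bp at 134053 to 135964 covered the last 55.9% of the coding body, and GLC3 was the only protein-coding gene that it touched. It ranked near the bottom of the list called from HU alone, at 247 of 265, and at 340 of 472 over mock and 304 of 547 over G1. In recovery, peaks at 132726 to 138943 in Exp A and 130516 to 135817 in Exp B covered the gene whole. The Exp B peak shared the top score of 3100 with 9 others of 209, while the Exp A peak ranked 85 of 198. These recovery peaks ran in opposite directions beyond the gene, in Exp A as far as GCN4, the gene of the amino acid starvation regulator, and in Exp B over the ubiquitin-conjugating enzyme gene UBC8 as far as VAC8, so that they shared 3092 bp. No WT list reached GLC3, and no peak of the mec1 HU lists of Exp A and Exp B did.

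GPH1 codes for glycogen phosphorylase, which releases glucose-1-phosphate from glycogen chains, and lies at 861306 to 864014 on chromosome XVI (plus strand). In mec1 HU of Exp A a peak of 8062 bp at 856764 to 864825 covered the whole gene and ranked 11 of 138. In the other mec1 HU lists the corresponding peak stopped short of the gene. The Exp B peak at 856830 to 860114 ended 1192 bp before the start codon and ranked 21 of 151, and the Control peak at 857052 to 860288 ended 1018 bp before it and ranked 41 of 265. All of these peaks lay over KRE6, a gene of cell wall beta-glucan synthesis upstream of GPH1. What the 3 mec1 HU lists share is therefore KRE6 and the sequence around it, and GPH1 was inside the call in 1 of the 3.

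In recovery both mec1 lists reached GPH1, and there Exp B, not Exp A, covered it whole. The mec1 Exp B peak at 856937 to 865095 covered GPH1 whole and shared the top score of 3100 with 9 others of 209. The mec1 Exp A peak at 856602 to 861355 reached only the first 50 bp of the coding body (1.85%), had its midpoint in KRE6 and ranked 84 of 198. In Exp A the call thus covered the whole gene in HU and its first bases in recovery over HU. The WT lists had no peak near GPH1. Their nearest peaks were 16646 bp (HU Exp C), 19377 bp (HU Control, over mock and over G1) and 26011 bp (recovery) away.

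GDB1 codes for the debranching enzyme, which completes the breakdown of branches that the phosphorylase leaves, and is the longest member (chromosome XVI, 902044 to 906654, plus strand). No peak of the 12 lists came closer than 18132 bp. In the 7 mec1 lists other than BamHI the nearest peak, over JIP5, lay 18132 to 19486 bp upstream of the gene. In the WT lists the nearest lay 57384 to 66749 bp upstream. The BamHI list had a peak inside GDB1 at 905162 to 906488, tied with 723 others of 1296 at the score of 3100.

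IGD1 codes for an inhibitor of the Gdb1 debranching enzyme and is the shortest member, with 588 bp (chromosome VI, 182274 to 182861, minus strand). It lay in the top-ranked of the 137 peaks of WT recovery, a peak of 8214 bp at 178992 to 187205. This peak also reached AIP5 and YFR018C and held part of the lipid kinase gene FAB1. The midpoint of the peak was 237 bp upstream of the IGD1 start codon and nearest to YFR018C. No other list reached IGD1. The nearest peaks of mec1 recovery were 111842 bp (Exp A) and 14646 bp (Exp B) away, and those of the mec1 Control lists 5182 to 5377 bp away. In WT HU of Exp C, the library over which the WT recovery was called, the nearest peak was 32633 bp away.

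TPS1 codes for trehalose-6-phosphate synthase and lies at 488905 to 490392 on chromosome II (minus strand). The calls lay at opposite ends of the gene, in 1 of the 7 mec1 lists and in the 3 WT Control lists. In mec1 HU over G1 a peak at 486348 to 489112 covered the last 208 bp of the coding body (14.0%), had its midpoint in the phosphatase gene PTC4 and ranked 351 of 547. The same mec1 library called alone or over mock had its nearest peak 2762 bp downstream of the gene. In all 3 WT Control lists a peak of 1433 bp at 490026 to 491458 covered the first 367 bp (24.7%) and ran upstream to -1066 bp relative to the start codon, reaching VMA2, a gene of the vacuolar proton pump. It ranked 32 of 43 in HU alone, 30 of 60 over mock and 47 of 90 over G1. The peaks of the strains were separated by 913 bp, so that TPS1 counts as reached in both strains with no base in common. TPS1 was not reached in WT Exp C or in any recovery list.

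NTH1 codes for the neutral trehalase that mobilises trehalose in growing cells and lies at 450220 to 452475 on chromosome IV (minus strand). No list called from HU alone reached it. The closest was mec1 HU of Exp A, with a peak 673 bp upstream of the start codon, which is the nearest miss of the 500 bp rule among the members. In the mec1 Control library a peak of 2656 bp at 449520 to 452175 covered 86.7% of the coding body and touched no other protein-coding gene. It ranked 296 of 472 over mock and 358 of 547 over G1. In mec1 recovery of Exp B the widest peak at any member, 15032 bp at 438039 to 453070, covered NTH1 and ranked 31 of 209. It also touched 8 other protein-coding genes. Its midpoint was in the cohesin gene MCD1. In WT recovery of Exp C a peak at 447395 to 450451 covered the last 232 bp (10.3%), with its midpoint in RMD1, and ranked 12 of 137. The mec1 and WT recovery peaks shared 3057 bp, the whole of the WT peak.

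NTH2, the paralog of NTH1, lies at 238941 to 241283 on chromosome II (minus strand). It was reached in more lists than any other member, 6 of 12, but these are the 6 Control lists and rest on 2 libraries. In mec1 a peak of 6830 bp at 238065 to 244894 covered NTH2 whole and ran upstream over RER2 and COQ1 into GPI18. It ranked 81 of 265 in HU alone and 12 of 472 over mock, and over G1 it had the score of 3100, with rank 7 of 547 shared by 25 peaks. In WT a peak of 4509 bp at 235603 to 240111 covered the last 50.0% of the coding body and ran the other way over ECM15 and the histone genes HTB2 and HTA2. It ranked 25 of 43 in HU alone, 14 of 60 over mock and 15 of 90 over G1. The peaks shared 2047 bp, over the end of NTH2 and the sequence beyond it, and their midpoints were 196 bp upstream of the start codon in mec1 and, counted along the gene from the start codon, 3426 bp downstream in WT. Exp A, Exp B and Exp C gave no peak at NTH2.

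**Figure D3:**
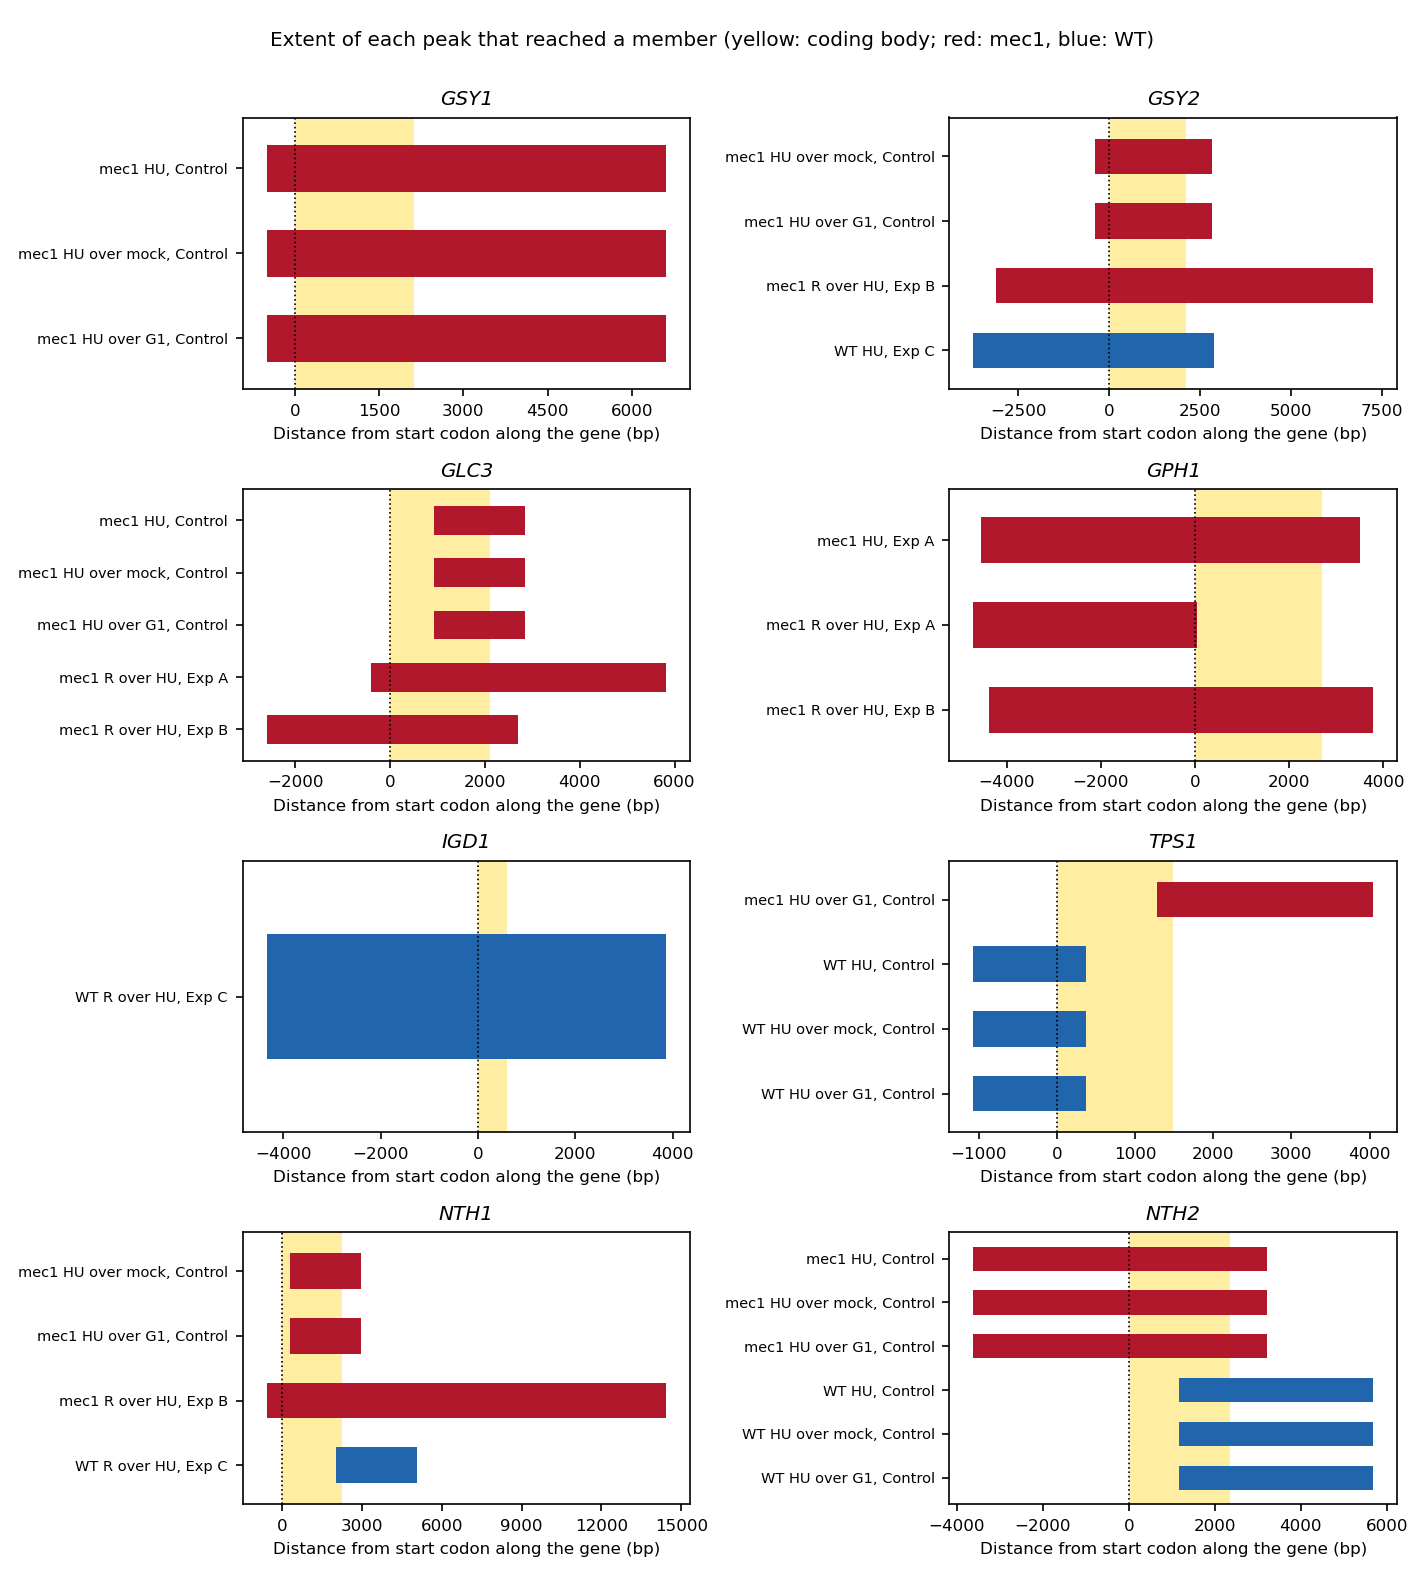
Extent of every peak that reached a member in the 12 lists other than BamHI, for the 8 members reached. The horizontal axis is the distance from the start codon along the gene in bp (negative is upstream), yellow is the coding body, red bars are mec1 and blue bars WT. At TPS1 the mec1 bar and the WT bars lie at opposite ends and do not overlap, at NTH2 they overlap by 2047 bp, and at GPH1 the recovery peak of Exp A ends 49 bp past the start codon.

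Most of these peaks were broad and not centred on the member. Counting a position once per strain, 18 peak positions reached members. Of these, 11 covered the whole coding body, 2 held the start codon end and 5 the stop codon end. Midpoints lay inside the member in 5 cases, upstream in 7 and downstream in 6. Peak width ran from 1433 to 15032 bp with a median of 5760 bp, and a peak touched 1 to 9 protein-coding genes with a median of 3. Over all peaks of a list, the median width ran from 1624 bp (WT HU over G1) to 4943 bp (WT HU Exp C). Picking peaks that reach a gene favours wide ones, so these medians are not alike. A member was the only protein-coding gene in 2 of the 18, the Control peaks of mec1 at GLC3 and NTH1. Over all 30 pairs of a member and a peak, the midpoint lay inside the member in 30.0%, against 19.3% of the 7530 pairs over all protein-coding genes, which are shorter. These pairs count a peak of a Control library again in each list that called it, so they are not separate sites. Score percentiles within a list ran from 6.98 (GLC3 in mec1 HU Control) to 99.6 (IGD1 in WT recovery) with a median of 63.7. Apart from midpoints, no value over all gene and peak pairs is given, so these traits are not shown to be particular to the members.

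By strain, 7 of the 10 members were reached in at least 1 of the 7 mec1 lists, against 36.4% of all protein-coding genes, and 5 in at least 1 of the 5 WT lists, against 13.6%. GSY2, TPS1, NTH1 and NTH2 were reached in both strains, 4 of 10 against 10.1% of all genes. GSY1, GLC3 and GPH1 were reached in mec1 lists and in no WT list, 3 of 10 against 26.3% of all genes, which is near the background. IGD1 was reached in a WT list and in no mec1 list, 1 of 10 against 3.48% of all genes. Whether any member differs between the strains was not tested, and the mec1 lists hold more peaks. Of the 8 libraries, a member was reached in a median of 2, with GSY2, GLC3, GPH1 and NTH1 in 3 each, while the median over all protein-coding genes was 0. At least 3 libraries reached 9.91% of all genes.

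Other genes with the same set of lists as GPH1, GLC3 and NTH2 were found by setting the 12-list patterns of all protein-coding genes against theirs (Jaccard index, leaving out genes within 20 kb). The set of GPH1 (mec1 HU Exp A and both mec1 recovery lists) was shared exactly by 13 genes. By mean score percentile, which was 82.6 for GPH1, these were led by RNH203 (88.4), a ribonuclease H2 subunit gene, and the hexose transporter gene HXT9 (71.5), followed by the neighbours RAD30, RPL12B and SYF1 on chromosome IV (65.4 each). The set of GLC3 was shared by 14 genes, with TFB2 on chromosome XVI, FUS3 and ACH1 on chromosome II, ADH4 and OST3 at the head. The set of NTH2, all 6 Control lists, was shared by 16, led by the neighbours GBP2, SGF29, ILV6 and YCL012C on chromosome III and by DFP1 on chromosome I. Neighbours share their peaks, so these are fewer sites than genes.

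The other genes of the pathway are 19 in a list written from general knowledge, with a median coding length of 1710 bp. They leave out the members, which were chosen with the calls known. A low share among the 19 is therefore not independent of that choice and carries no test. Over the 12 lists 5 of the 19 had a peak (26.3%), against 39.8% of all protein-coding genes. For members and other genes together it was 13 of 29 (44.8%). In the 5 lists called from HU alone, 1 of the 19 was reached, against 21.2% of all genes. This was GLC8, which codes for a regulator of the Glc7 phosphatase that activates glycogen synthase. It lay in a WT Exp C peak at 894186 to 902472 on chromosome XIII that ranked 65 of 103. No mec1 HU list called alone reached any of the 19, while at least 1 of the 3 reached 17.4% of all genes. With the members included, these 3 lists reached 4 of 29 (13.8%), and the 5 lists called from HU alone reached 7 of 29 (24.1%).

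Among the 19, the stress transcription factor gene MSN4 was covered by a mec1 Control peak ranked 94 of 472 over mock and 53 of 547 over G1, and a WT peak over G1, ranked 55 of 90, lay within 500 bp of its end. GLC7 was covered in mec1 recovery of Exp A by a peak ranked 180 of 198, and for 70.1% of its length by one ranked 162 of 547 in mec1 HU over G1. A mec1 recovery peak of Exp B, ranked 144 of 209, ended at -491 bp relative to the start codon of the glucoamylase gene SGA1 without touching it. The WT recovery list reached TPS3, a regulatory subunit gene of the trehalose synthase complex, at a rank of 49 of 137, over the last 37.7% of the gene. The remaining 14 had no peak in the 12 lists. They are GLG2, GAC1, PIG1, PIG2, PCL8, PCL10, PHO85, PGM1, PGM2, UGP1, TPS2, TSL1, ATH1 and MSN2, which include the second glycogenin gene, the targeting subunit genes of Glc7 and the genes that supply UDP-glucose. The BamHI list reached 6 of the 19, which is 31.6%, against 36.8% of all genes.

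**Figure D4:**
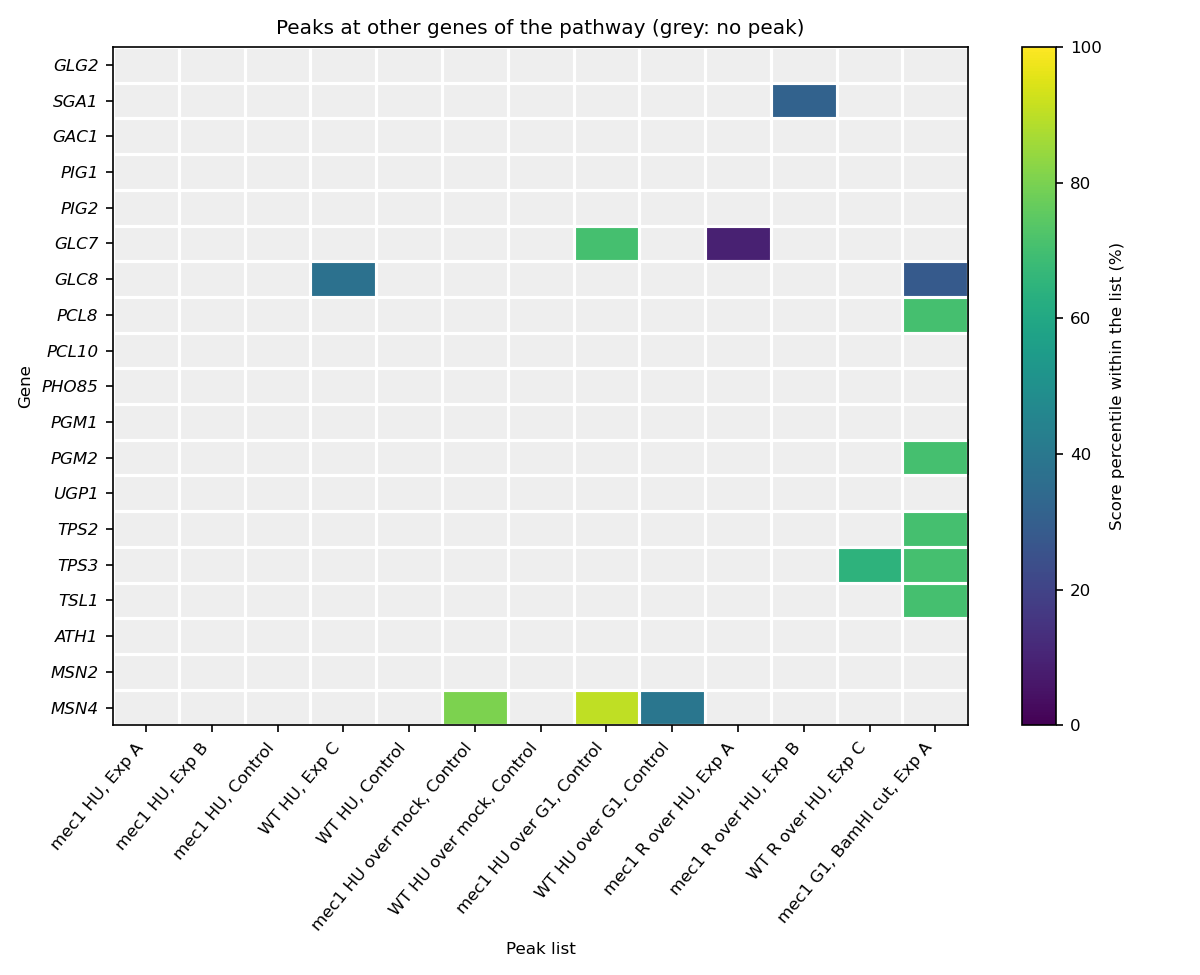
Peaks at the 19 other genes of the pathway (rows) in the 13 lists (columns), with the score percentile within the list as colour and grey where no peak reached the gene. Outside the BamHI column, 5 rows have a filled cell: SGA1, GLC7, GLC8, TPS3 and MSN4.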

How the data were processed

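Positions of broken DNA ends were given as 13 peak lists on sacCer3. For 7 samples the submitters' processing notes list Bowtie2, BWA 0.6.2 and MACS 1.4.1. For the 6 Control samples they list BWA, and MACS appears in the labels without a version. How peaks were filtered is unknown here. Each peak's deposited score is the authors' own value, on a scale the files leave unnamed. It was used only within a list, with equal scores sharing a rank. 1 was added to each deposited start, and 2-digit chromosome names in the BamHI list were translated.

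Genes came from RefSeq R64, in which 96.4% of protein-coding lengths are divisible by 3, so lengths are coding lengths. Strand was read from the systematic name. Overlaps were computed with Python 3.11.15 and pandas 2.3.3, by code tested on simulated intervals. The members, the gene lists and the counting rules were chosen with earlier results of these data known, and no test was made. Named are the members, the 19 other pathway genes, genes in or beside peaks at or nearest to a member (some chosen after their positions were seen), and at most 5 genes most like GPH1 or like a member in at least 5 lists. Alternatives were other windows, overlaps, scores and peak extents, and leaving out lists.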

Additional observations from a re-analysis of the deposited data

How the results depend on the processing

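Of 50 alternative values, 44 stayed within 1.5 times the value reported. Counting the gene body only, or asking for at least 200 bp of overlap with the gene and its 500 bp flanks, changed no count. The flanks matter there, since the mec1 recovery peak of Exp A shares only 50 bp with the GPH1 coding body. With 1000 bp either side, NTH1 in Exp A raised the mec1 HU mean to 1.67. With scores of at least 100 the WT HU mean was 0.5, as the Control peaks at NTH2 and TPS1 score lower. With each peak narrowed to 200 bp at its midpoint, the mec1 recovery mean was 1.5 and the WT recovery count 1 (IGD1). The count for WT HU over mock and over G1 was then 1 (TPS1). Under these other windows, overlaps, scores and midpoints the share of all genes is not given, so these counts stand without a background. Leaving out 1 list at a time, the mec1 HU mean ran from 0.5 (without Control) to 2 (without Exp B), the WT HU mean from 1 to 2 and the mec1 recovery mean from 2 to 4. Of the alternatives chosen after seeing the data, leaving out the 6 Control lists gave 5 of 10 members, against 28.8% of all genes. Lists of HU alone gave 6, against 21.2%, and leaving out the 4 lists over mock or G1 gave 8, against 32.9%. Depth is unknown, so a gene without a peak is not shown to be free of breaks.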
